A study of Mus musculus with 9 samples.

Results

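Expression of the phosphoinositide 3-kinase (PI3K) and AKT pathway was followed in 8 genes, taken by symbol: Pik3cd, Pik3r1, Pik3ip1, Inpp5d, Akt1, Akt2, Mtor and Rptor. The 8 were chosen with earlier results of these data known, so that counts among them are no independent evidence. Each symbol matched 1 row of a table of 24060 genes, and all 8 were among the 12115 genes that passed a filter on low values (over 1 TPM, the number of transcripts of a gene scaled to the same total in every library, in at least 1 sample). The RNA came from CD8 T cells of Rop7-I, -II and -III mice, which are transnuclear: each line was made by nuclear transfer from 1 CD8 T cell and carries the rearranged T-cell receptor (TCR) of that cell. All 3 receptors bind the Rop7 epitope of the parasite Toxoplasma gondii on the class I molecule H-2Ld, and the clones were set side by side because they differ in affinity for the epitope and in self-reactivity. In every group the mice had been backcrossed to BALB/c, splenocytes were held overnight with IL-2 (10 ng per ml) and without antigen, and cells positive for CD3, CD8 and the H-2Ld-Rop7 tetramer were sorted at 90 to 95% purity. The paper calls the sequenced cells of all 3 clones homozygous, while age and sex are not given in the sources used here. Each clone had 3 biological replicates, 9 samples in all. Since each line is 1 clone and no polyclonal or non-transnuclear sample is among the groups, the receptor and any other trait of a line cannot be told apart.

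Class I PI3K adds a phosphate to a lipid of the plasma membrane and so makes PIP3, which draws the kinase AKT to the membrane, where it is activated. In T cells most PIP3 downstream of the TCR, CD28 and the IL-2 receptor is made by p110δ, the product of Pik3cd, which is stable only when bound to a regulatory subunit such as those encoded by Pik3r1. AKT phosphorylates FOXO transcription factors, which then leave the nucleus, and releases a brake on mTORC1, the growth-controlling complex of the kinase mTOR and its scaffold raptor, the product of Rptor. Naive T cells hold the pathway low, and nuclear FOXO1 maintains genes of homing and survival in them.

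TPM corrects for the length of a gene and for the size of a library, which allows levels of different genes to be set side by side. The table holds no read counts, and the paper gives an approximate number of reads for a typical sample but not the depth of each library. The values are levels of mRNA and not of protein or of phosphorylation, and in bulk RNA fewer cells of a type and less RNA per cell cannot be told apart. The 6 marker genes of CD8 T cells summed to between 5591 and 6255 TPM in the 9 samples, against between 2.39 and 19.1 TPM for 4 markers of CD4 T cells. Rop7-II replicate 1 had the highest level of 14 of 14 B-cell markers, of all 9 myeloid markers in the table (1 of the 10 listed, Adgre1, has no row under that symbol), of 3 of 4 CD4 T-cell markers and of 4 of 7 NK-cell markers. The B-cell markers summed to 2096 TPM in that sample and to between 127 and 877 TPM in the other 8. The myeloid sums were 620.2 TPM and between 36.0 and 236 TPM, and the NK-cell sums 79.5 TPM and between 14.4 and 44.5 TPM. Erythroid markers, of which 1 of 7 was at 0 in every sample, summed to 2439 TPM in Rop7-I replicate 2 and to between 27.2 and 481 TPM in the others. Results that changed without Rop7-II replicate 1 are given with that change beside them.

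The sequence around the starts of the 3 genes whose levels differed between clones in the tests that follow is shown to place them in the genome. RefSeq on GRCm38.p6 lists 15 start sites for the 8 genes, and all 8 were found in it. Pik3cd has 3, Akt2 has 4, Pik3r1 and Akt1 have 2 each and the others 1. In the lines that follow, each window of 300 bases is written 5′ to 3′ on the strand of the gene, and capitals mark matches to the GC box, the binding motif of SP-family factors, searched as GGGCGG and CCGCCC. For Pik3cd the window with the most matches of its 3 is printed, which lies between the other 2 and within the gene. The window nearer the 5′ end held 1 match (51.0% G or C) and the one nearer the 3′ end 0 (54.0%). The outer start of Pik3r1 lies at the 5′ end of the gene and the inner one within it. The deposited table holds 1 value per gene, so that transcripts from these starts were not separated.
Pik3cd, chr4:149676040-149676339, minus strand: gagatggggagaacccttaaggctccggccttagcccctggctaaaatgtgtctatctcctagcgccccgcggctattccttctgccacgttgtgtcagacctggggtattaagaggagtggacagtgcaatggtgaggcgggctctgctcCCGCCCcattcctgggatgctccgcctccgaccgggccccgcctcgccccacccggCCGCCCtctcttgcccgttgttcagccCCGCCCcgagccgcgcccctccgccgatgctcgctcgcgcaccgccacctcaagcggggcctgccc
Pik3r1 outer start, chr13:101768168-101768467, minus strand: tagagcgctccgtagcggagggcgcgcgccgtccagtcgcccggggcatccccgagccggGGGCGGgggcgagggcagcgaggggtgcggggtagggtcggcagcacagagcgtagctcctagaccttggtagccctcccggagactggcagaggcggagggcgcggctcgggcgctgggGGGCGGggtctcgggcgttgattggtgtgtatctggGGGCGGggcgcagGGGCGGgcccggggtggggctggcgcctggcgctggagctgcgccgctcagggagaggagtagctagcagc
Pik3r1 inner start, chr13:101692581-101692880, minus strand: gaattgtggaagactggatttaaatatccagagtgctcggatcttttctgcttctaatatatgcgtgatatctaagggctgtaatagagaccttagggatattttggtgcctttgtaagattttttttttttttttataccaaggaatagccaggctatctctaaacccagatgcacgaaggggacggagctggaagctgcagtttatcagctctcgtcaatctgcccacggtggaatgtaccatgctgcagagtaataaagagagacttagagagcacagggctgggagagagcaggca
Rptor, chr11:119602655-119602954, plus strand: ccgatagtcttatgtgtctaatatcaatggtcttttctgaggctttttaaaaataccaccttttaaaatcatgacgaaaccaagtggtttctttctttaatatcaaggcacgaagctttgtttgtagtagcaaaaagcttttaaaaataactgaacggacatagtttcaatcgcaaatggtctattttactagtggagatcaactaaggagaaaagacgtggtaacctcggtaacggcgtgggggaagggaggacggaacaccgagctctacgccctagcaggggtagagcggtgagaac

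The printed Pik3cd window, picked for its matches, held 3 matches and was 68.0% G or C, and the outer Pik3r1 window held 4 and was 75.7% G or C. The inner Pik3r1 window (43.7% G or C) and the Rptor window (41.7%) held 0. Among all 15 windows of the 8 genes, 6 held a GC box, against 35.66% of the 32851 windows in the table. A FOXO-type motif, searched as GTAAACA and TGTTTAC and sharing no overlap with the GC box in these windows, was found in 1 of the 15, before Akt1, against 3.65% of all windows. These motifs were chosen after the expression values had been seen, and a match describes the letters in a window and not a bound site.

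Of the 8 genes, 3 differed between clones at an adjusted p under 0.01: Pik3cd, Pik3r1 and Rptor. Pik3cd was lowest in Rop7-III T cells, Pik3r1 was lowest in Rop7-II T cells, and Rptor was lowest in Rop7-II and highest in Rop7-III T cells. The differences were moderate, the largest a 1.47-fold higher level of Rptor in Rop7-III than Rop7-II T cells, and 0 of the 8 genes reached a 2-fold difference in limma. Inpp5d, Akt1, Akt2 and Mtor did not pass in any pair of clones, nor did Pik3ip1. Between Rop7-III and -II T cells 3 of the 8 passed, against 12.3% of all tested genes. Of these, 2 were higher in Rop7-III (6.39% of all tested genes) and 1 was lower (5.89%). Between Rop7-III and -I T cells 1 passed, against 4.85% of all tested genes, and it was lower in Rop7-III (2.28%, with 2.58% higher). Between Rop7-I and -II T cells 2 passed, against 7.53%, both higher in Rop7-I (3.67%, with 3.85% lower). A 2-fold difference was called in 1.7%, 1.06% and 0.949% of all tested genes in these 3 pairs. In the F test across the clones the 3 genes passed, against 14.1% of all tested genes. Without Rop7-II replicate 1 the members called were 3, 1 and 1 in the pairs and 3 in the F test, and without Rop7-I replicate 2, the sample with the highest erythroid markers, 3, 0, 1 and 3. Over all tested genes the counts were 1488, 588, 912 and 1707 with all samples. They were 1315, 830, 875 and 1717 without Rop7-II replicate 1 and 1219, 295, 416 and 1110 without Rop7-I replicate 2. Leaving out Rop7-I replicate 1 instead gave 1229, 265, 490 and 1154, so that such a drop was not particular to replicate 2.

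In each pair the samples of 5 of the 8 genes did not overlap between the clones, 3 of them higher and 2 lower in the clone named first. Among all tested genes this was so for 40.7% between Rop7-III and -II (19.6% higher, 21.2% lower), for 38.2% between Rop7-III and -I (18.4% higher, 19.7% lower) and for 35% between Rop7-I and -II (16.5% higher, 18.5% lower). The median log2 fold change of the 8 genes was 0.01, -0.02 and 0.01, beside -0.02, -0.00 and -0.01 over all tested genes. The 3 pairs share samples and are not independent of each other. All these tests used limma on log2(TPM + 1) with Benjamini-Hochberg adjustment over the 12115 genes of each comparison. The p-values rest on 1 spread per gene, pooled over the 3 clones with 3 replicates each. Leaving out a sample can therefore change the p-value of a pair that its clone is not in.

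**Figure D1:**
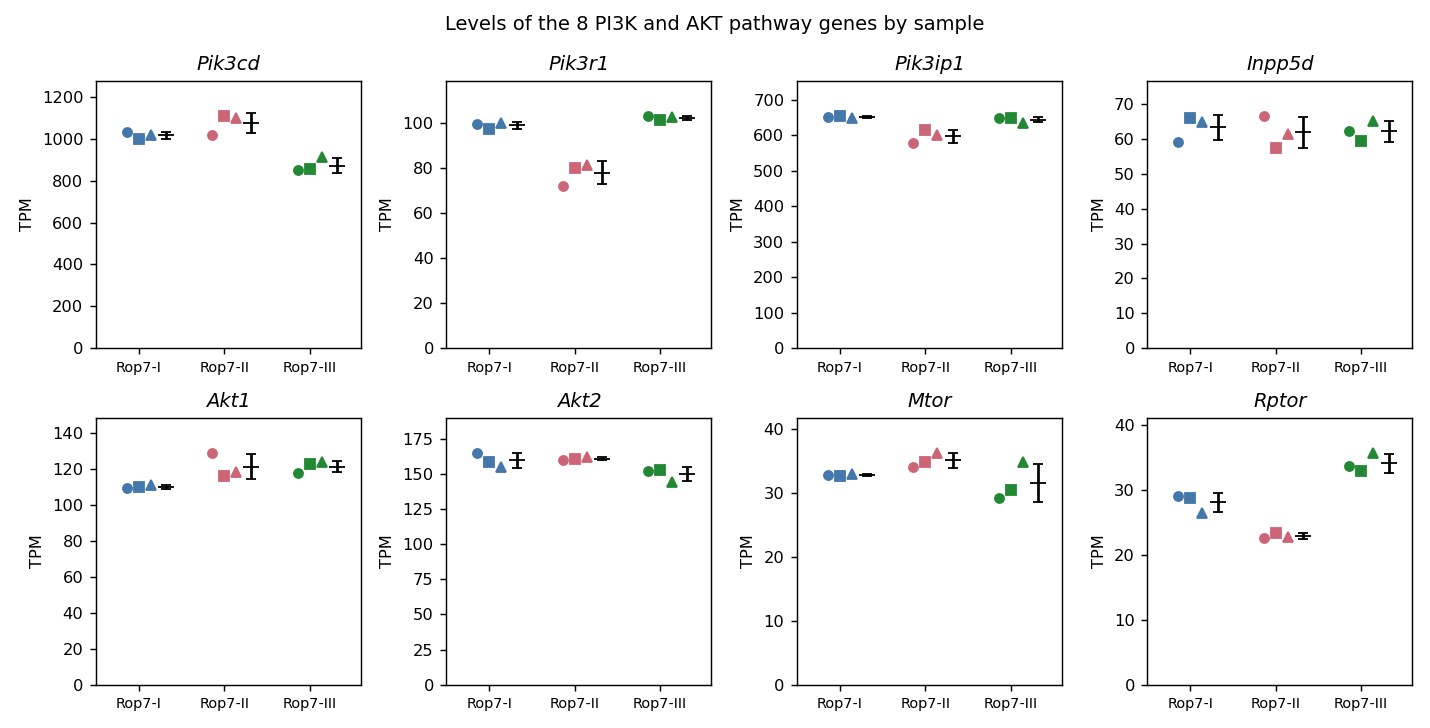
TPM of each of the 8 genes (vertical axes from 0, linear) in the 9 samples, grouped by clone, with circles, squares and triangles for replicates 1, 2 and 3 and black bars for the mean and SD of each clone. Pik3cd lies between 850.1 and 912.0 TPM in Rop7-III and at 1001 TPM or above in the other samples, Pik3r1 is lowest in the 3 Rop7-II samples, and the 3 clones occupy separate ranges of Rptor.

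The levels of the 8 genes followed one order in 6 of the 9 samples. Pik3cd was highest, with a mean of 989 TPM over the 9 samples, and ranked 134 of 24060 genes by mean TPM. Pik3ip1 followed at 631 TPM, then Akt2 at 157, Akt1 at 117.6, Pik3r1 at 93.2, Inpp5d at 62.5, Mtor at 33.1 and Rptor at 28.4 TPM. From Pik3cd down to Inpp5d, and from Inpp5d to Mtor, the ranges of neighbours in this order did not overlap over the 9 samples. Mtor and Rptor overlapped, since Mtor stood above Rptor in all 6 Rop7-I and -II samples and below it in all 3 Rop7-III samples. Within a clone the SD of a gene was between 0.398% and 9.53% of its mean.

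Pik3cd, which encodes the catalytic subunit p110δ, lies on chromosome 4 of GRCm38 from 149649168 to 149702571 on the minus strand. It stood at 1033, 1001 and 1019 TPM in the Rop7-I samples, at 1020.0, 1110.4 and 1100.2 TPM in the Rop7-II samples and at 850.1, 856.4 and 912.0 TPM in the Rop7-III samples. Each Rop7-III sample lay below each sample of the other 2 clones, whose ranges overlapped. In the order Rop7-I, -II and -III the means were 1018 ± 16.0, 1077 ± 49.5 and 872.8 ± 34.1 TPM (SD, n = 3 each). Pik3cd was 1.23-fold lower in Rop7-III than Rop7-II T cells (log2 fold change -0.30, standard error 0.04, limma adjusted p = 8.07e-04), and this difference passed with each of the 9 samples left out in turn. Against Rop7-I it was 1.17-fold lower (log2 fold change -0.22, standard error 0.04, limma adjusted p = 0.00793). That call was lost without any 1 of 6 samples, namely each Rop7-I replicate, Rop7-II replicate 3 and Rop7-III replicates 1 and 2, with an adjusted p of up to 0.0375 and log2 fold changes between -0.23 and -0.20. Between Rop7-I and -II T cells the log2 fold change was -0.08 (95% interval -0.17 to 0.01, adjusted p = 0.204).

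Pik3r1 encodes the p85α, p55α and p50α regulatory subunits, which bind and stabilise the catalytic subunit and hold it inactive until receptors engage them. It lies on chromosome 13 from 101680563 to 101768217 on the minus strand. It stood at 99.9, 97.4 and 100.1 TPM in the Rop7-I samples, at 72.1, 80.4 and 81.4 TPM in the Rop7-II samples and at 103.4, 101.5 and 102.7 TPM in the Rop7-III samples. All 3 Rop7-II samples lay below the other 6, with the lowest value in Rop7-II replicate 1. Pik3r1 was 1.31-fold higher in Rop7-III than Rop7-II T cells (102.5 ± 0.978 against 78.0 ± 5.09 TPM, SD, n = 3 each; log2 fold change 0.39, standard error 0.05, limma adjusted p = 3.67e-04). It was 1.27-fold higher in Rop7-I (99.1 ± 1.52 TPM, SD, n = 3) than in Rop7-II T cells (log2 fold change 0.34, standard error 0.05, limma adjusted p = 0.00119). Both differences passed with each of the 9 samples left out in turn, and without Rop7-II replicate 1 they were 0.34 and 0.29. Rop7-III and -I T cells differed by 0.05 on the log2 scale (95% interval -0.05 to 0.15, adjusted p = 0.527), although the 3 Rop7-III values all lay above those of Rop7-I.

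The clone with the lowest level was not the same for Pik3cd as for Pik3r1. Per 100 TPM of Pik3cd there were 9.67, 9.73 and 9.82 TPM of Pik3r1 in the Rop7-I samples, 7.07, 7.24 and 7.40 TPM in the Rop7-II samples and 12.2, 11.8 and 11.3 TPM in the Rop7-III samples. The 3 clones did not overlap in this ratio. Means were 9.74 ± 0.0794, 7.24 ± 0.164 and 11.8 ± 0.455 (SD, n = 3 each). Each pair of clones gave a two-sided exact permutation p of 0.1, the smallest that 3 samples against 3 allow, and 0.1125 with Benjamini-Hochberg adjustment over 18 tests of 6 such measures, all of them chosen after the values had been seen.

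Pik3ip1 encodes a transmembrane protein that binds the catalytic subunit and inhibits PI3K. It lies on chromosome 11 from 3330401 to 3342971, and 91 bases of its exons overlap the gene Gm12592 on the opposite strand, which has no row in the table. The library did not keep the strand. Pik3ip1 stood at 651.9, 655.1 and 649.1 TPM in the Rop7-I samples, at 577.8, 614.0 and 601.8 TPM in the Rop7-II samples and at 648.3, 649.4 and 635.6 TPM in the Rop7-III samples. The 3 Rop7-II samples were the lowest, as they were for Pik3r1, but the differences did not pass: the log2 fold change from Rop7-II was 0.11 for Rop7-III (95% interval 0.05 to 0.17, adjusted p = 0.0211) and 0.13 for Rop7-I (95% interval 0.06 to 0.19, adjusted p = 0.0152). Without Rop7-II replicate 1 these values were 0.08 and 0.10 (adjusted p = 0.0512 and 0.0311). Rop7-III and -I T cells overlapped, with a difference of -0.02 (95% interval -0.08 to 0.05, adjusted p = 0.739).

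Inpp5d encodes SHIP1, a phosphatase of blood cells that removes the 5′ phosphate of PIP3, and lies on chromosome 1 from 87620312 to 87720507. It stood at 59.2, 65.9 and 64.8 TPM in the Rop7-I samples, at 66.7, 57.5 and 61.5 TPM in the Rop7-II samples and at 62.2, 59.3 and 65.3 TPM in the Rop7-III samples. The clones overlapped throughout. The largest log2 fold change was 0.03, between Rop7-I and -II, and the 95% intervals of the 3 pairs lay within -0.17 and 0.18, with adjusted p between 0.765 and 0.923. The highest of the 9 values was that of Rop7-II replicate 1.

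**Figure D2:**
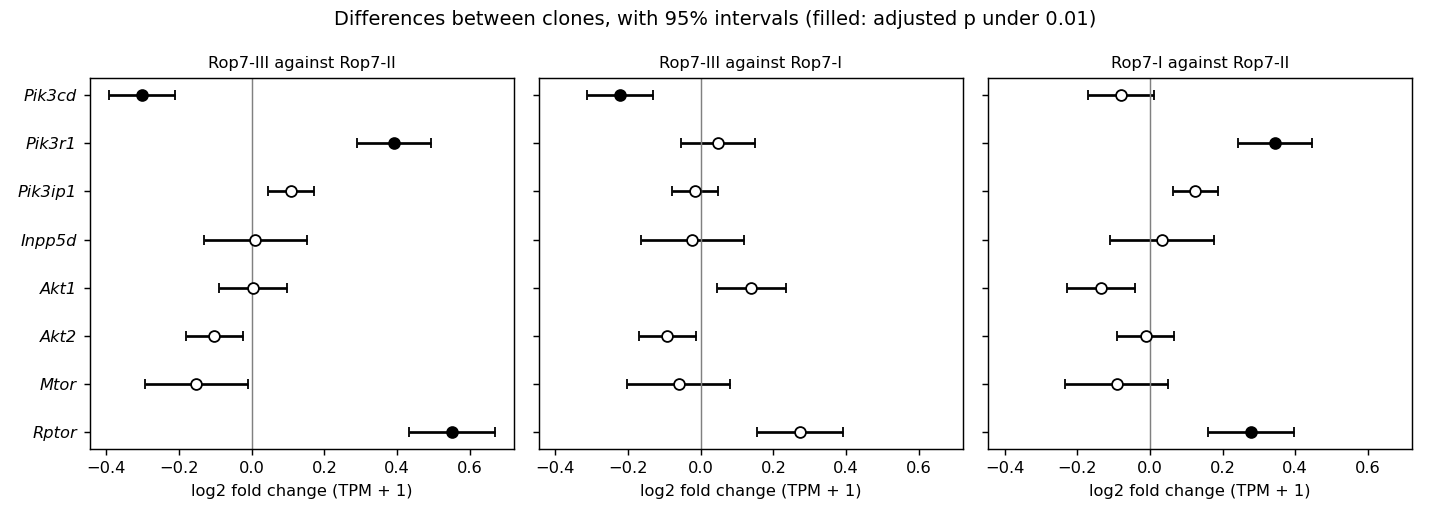
Log2 fold change of each gene on the log2(TPM + 1) scale (horizontal axes) for the 3 pairs of clones, with 95% intervals from limma and filled points where the adjusted p was under 0.01. Rptor and Pik3r1 lie to the right and Pik3cd to the left of 0 between Rop7-III and -II, and the intervals of Inpp5d cross 0 in every pair.

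Akt1 and Akt2 encode closely related AKT kinases, of which AKT2 is best known for glucose uptake in response to insulin. Akt1 lies on chromosome 12 from 112653821 to 112674884. It stood at 109.2, 110.0 and 111.2 TPM in the Rop7-I samples, at 129.2, 116.1 and 118.3 TPM in the Rop7-II samples and at 117.9, 122.6 and 123.7 TPM in the Rop7-III samples. The 3 Rop7-I samples were the lowest, and those of Rop7-II and Rop7-III overlapped. Rop7-III differed from Rop7-I T cells by 0.14 on the log2 scale (95% interval 0.04 to 0.23, adjusted p = 0.0589) and Rop7-I from Rop7-II by -0.13 (95% interval -0.23 to -0.04, adjusted p = 0.0547), neither of which passed. Without Rop7-II replicate 1, which had the highest level, the difference between Rop7-I and -II was -0.09 (adjusted p = 0.109). The difference between Rop7-III and -II was 0.00 (95% interval -0.09 to 0.10, adjusted p = 0.959).

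Akt2 lies on chromosome 7 from 27591552 to 27640826. It stood at 165.2, 158.5 and 155.0 TPM in the Rop7-I samples, at 159.5, 160.8 and 162.1 TPM in the Rop7-II samples and at 152.1, 153.0 and 144.0 TPM in the Rop7-III samples. The 3 Rop7-III samples were the lowest, by a log2 fold change of -0.10 from Rop7-II (95% interval -0.18 to -0.03, adjusted p = 0.0568) and of -0.09 from Rop7-I T cells (95% interval -0.17 to -0.01, adjusted p = 0.119). Neither passed. Rop7-I and -II T cells overlapped, with a difference of -0.01 (95% interval -0.09 to 0.07, adjusted p = 0.856).

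Mtor encodes the kinase shared by the complexes mTORC1 and mTORC2. It lies on chromosome 4 from 148448611 to 148557683, 1.091 Mb from Pik3cd. It stood at 32.8, 32.7 and 32.9 TPM in the Rop7-I samples, at 34.0, 34.8 and 36.3 TPM in the Rop7-II samples and at 29.1, 30.5 and 34.9 TPM in the Rop7-III samples. Rop7-III replicate 3 lay within the Rop7-II range and the other 2 Rop7-III samples below every other sample. The log2 fold change was -0.15 between Rop7-III and -II (95% interval -0.29 to -0.01, adjusted p = 0.108), -0.06 between Rop7-III and -I (95% interval -0.20 to 0.08, adjusted p = 0.570) and -0.09 between Rop7-I and -II (95% interval -0.23 to 0.05, adjusted p = 0.357). With any 1 sample left out the Rop7-III against Rop7-II value lay between -0.23 and -0.10.

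Rptor encodes raptor, which presents substrates to mTOR in mTORC1 and is absent from mTORC2. It lies on chromosome 11 from 119602905 to 119899576, and 84 bases of its exons overlap the antisense gene Rptoros, listed at a mean of 0.151 TPM, whose reads a library without strand cannot separate. Rptor stood at 29.2, 28.7 and 26.5 TPM in the Rop7-I samples, at 22.6, 23.5 and 22.9 TPM in the Rop7-II samples and at 33.7, 33.0 and 35.8 TPM in the Rop7-III samples. The 3 clones did not overlap, with Rop7-II lowest and Rop7-III highest. In the order Rop7-I, -II and -III the means were 28.1 ± 1.44, 23.0 ± 0.461 and 34.2 ± 1.48 TPM (SD, n = 3 each). Rptor was 1.47-fold higher in Rop7-III than Rop7-II T cells (log2 fold change 0.55, standard error 0.05, limma adjusted p = 1.17e-04), which passed with each of the 9 samples left out in turn. The 2 smaller steps lay close to the limit. Rop7-I against Rop7-II gave 0.28 (standard error 0.05, limma adjusted p = 0.00702) and Rop7-III against Rop7-I gave 0.27 (standard error 0.05, limma adjusted p = 0.0103), which did not pass. The call between Rop7-I and -II was lost without any 1 of 7 samples, that is all but Rop7-I replicate 3 and Rop7-III replicate 3, with log2 fold changes between 0.25 and 0.29 and an adjusted p of up to 0.0315. Without Rop7-II replicate 1 it was 0.27 (adjusted p = 0.0172).

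Set against Mtor, there were 88.8, 88.02 and 80.5 TPM of Rptor per 100 TPM of Mtor in the Rop7-I samples, 66.4, 67.5 and 63.1 in the Rop7-II samples and 115.7, 108.2 and 102.8 in the Rop7-III samples. This ratio exceeded 100 in the Rop7-III samples and in no other. Means were 85.7 ± 4.60, 65.6 ± 2.30 and 109 ± 6.51 (SD, n = 3 each), with a two-sided exact permutation p of 0.1 in each pair of clones (0.1125 over the 18 added tests).

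**Figure D3:**
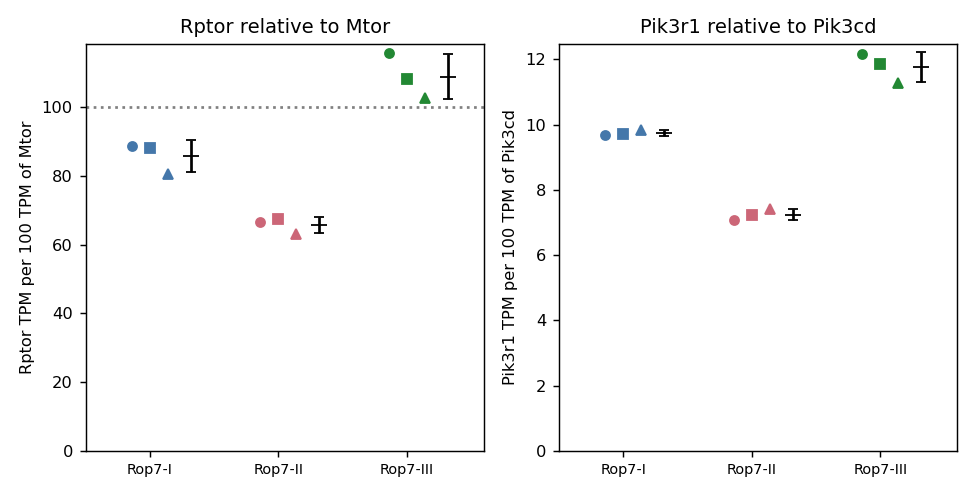
TPM of Rptor per 100 TPM of Mtor (left) and TPM of Pik3r1 per 100 TPM of Pik3cd (right) by clone, with circles, squares and triangles for replicates 1, 2 and 3, bars for mean and SD and a dotted line where Rptor equals Mtor. The 3 clones are separate in both ratios, and the Rop7-III samples are the ones above the dotted line.

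A list of 77 other genes of the pathway, in 7 groups by role, was read beside the 8. It was written with earlier results of these data known, so that its counts are no independent evidence. Of the list, 74 genes were tested. Pik3c2g, Deptor and Grb10 did not exceed 1 TPM in any sample. Between Rop7-III and -II T cells 12 of the 74 passed (16.2%, against 12.3% of all tested genes), 9 higher and 3 lower in Rop7-III. Between Rop7-III and -I 5 passed (6.76%, against 4.85%), all higher, and between Rop7-I and -II 11 passed (14.9%, against 7.53%), 5 higher and 6 lower. In the F test 15 passed (20.3%, against 14.1%). Without Rop7-II replicate 1 these counts were 11, 7, 9 and 15, while the counts over all tested genes went from 1488, 588, 912 and 1707 of 12115 to 1315, 830, 875 and 1717 of 11916. Counts by group, which follow, are to be read against the same shares of all tested genes. The median log2 fold change of the list was 0.02, 0.00 and 0.03 in the 3 pairs.

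Among the other PI3K subunits and adaptors 1 of 12 tested genes passed, Pik3cg, which encodes the catalytic subunit p110γ that G protein-coupled receptors activate. Pik3cg stood at 29.6, 28.7 and 30.7 TPM in the Rop7-I samples, at 15.8, 13.6 and 15.8 TPM in the Rop7-II samples and at 29.5, 29.4 and 28.4 TPM in the Rop7-III samples. All 3 Rop7-II samples were far below the other 6. Pik3cg was 1.88-fold higher in Rop7-III than Rop7-II T cells (log2 fold change 0.91, standard error 0.06, limma adjusted p = 2.23e-05) and 1.91-fold higher in Rop7-I than Rop7-II T cells (log2 fold change 0.94, standard error 0.06, limma adjusted p = 2.40e-05). Rop7-III and -I T cells differed by -0.03 (95% interval -0.17 to 0.11), and in that pair 0 of the 12 genes passed in limma and 1 had an unadjusted p under 0.05. Pik3r5, which encodes the p101 partner of p110γ, stood between 163 and 205 TPM in the 9 samples and did not pass in any pair.

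Pik3cd made up most of the class I catalytic transcripts in every sample, with Pik3ca (between 42.0 and 48.1 TPM), Pik3cb (between 4.42 and 5.80 TPM) and Pik3cg as the rest. The share of Pik3cd was 92.6% ± 0.196 in Rop7-I, 94.5% ± 0.375 in Rop7-II and 91.6% ± 0.223 in Rop7-III T cells (SD, n = 3 each). The clones did not overlap, with a two-sided exact permutation p of 0.1 in each pair (0.18 with Benjamini-Hochberg adjustment over 9 tests of 3 shares). The Pik3cg share was 2.70% ± 0.0752, 1.33% ± 0.150 and 3.06% ± 0.169 (SD, n = 3 each), and there were 677 ± 25.7, 1181 ± 130 and 691.5 ± 25.6 TPM of Pik3r5 per 100 TPM of Pik3cg (SD, n = 3 each). Among the 18 added tests both gave an exact permutation p of 0.1 in each pair, except 0.6 for the ratio between Rop7-III and -I (0.1125 and 0.6 after adjustment). Of the class IA regulatory transcripts Pik3r1 made up 85.2% ± 0.901, 83.4% ± 1.91 and 84.7% ± 1.49 (SD, n = 3 each). The clones overlapped in this share, with exact permutation p between 0.2 and 0.7 (0.257 and 0.7 over the 9 tests). Pik3ap1, an adaptor that B cells express strongly, was highest in Rop7-II replicate 1 at 14.3 TPM, against between 0.71 and 6.22 TPM in the other samples, as were the B-cell markers. Between Rop7-III and -I its log2 fold change was -1.37, which did not pass with all samples (limma adjusted p = 0.187), but did without Rop7-II replicate 1 (limma adjusted p = 0.00809). The fold change was the same in both fits, since that sample is in neither clone of the pair. It entered only the spread, which is pooled over the 3 clones. Pik3ap1 stood at 2.83, 6.22 and 4.06 TPM in the Rop7-I samples and between 0.71 and 1.59 TPM in the Rop7-III samples. The B-cell markers summed to 329, 877 and 647 TPM in these Rop7-I samples. In the Rop7-III samples they summed to between 127 and 275 TPM. Whether B cells account for the Pik3ap1 difference was not tested.

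Of 7 other phosphoinositide phosphatases 2 passed in some pair. Inpp4a, which acts on the lipid that SHIP1 produces, had means of 35.4 ± 1.56, 46.5 ± 3.04 and 37.1 ± 1.89 TPM in Rop7-I, -II and -III T cells (SD, n = 3 each). It was lower in Rop7-I than Rop7-II T cells by a log2 fold change of -0.38 (limma adjusted p = 0.00284, called in 7 of 9 fits with 1 sample left out) and lower in Rop7-III than Rop7-II T cells by -0.32 (limma adjusted p = 0.00468, called in 5 of 9). Inpp5k had means of 157.6 ± 16.4, 204 ± 4.22 and 208 ± 5.98 TPM (SD, n = 3 each), with log2 fold changes of 0.41 between Rop7-III and -I (limma adjusted p = 0.00465, called in 6 of 9) and -0.38 between Rop7-I and -II (limma adjusted p = 0.00498, called in 5 of 9). Without Rop7-II replicate 1 the adjusted p of the latter was 0.0105.

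Among the direct regulators of AKT, Phlpp1 and Phlpp2 passed between Rop7-III and -II T cells. PHLPP1 and PHLPP2 remove the phosphate from the hydrophobic motif of AKT. Phlpp1 stood at 9.89, 9.65 and 9.09 TPM in the Rop7-I samples, at 7.46, 6.20 and 7.82 TPM in the Rop7-II samples and at 12.2, 12.5 and 13.8 TPM in the Rop7-III samples, and was 1.70-fold higher in Rop7-III than Rop7-II T cells (log2 fold change 0.76, standard error 0.09, limma adjusted p = 4.36e-04). Phlpp2, at 3.62 ± 0.193, 2.40 ± 0.552 and 4.83 ± 0.0971 TPM (SD, n = 3 each), was higher by 0.79 on the log2 scale (standard error 0.13, limma adjusted p = 0.00224). The call of Phlpp2 held in 7 of 9 fits with 1 sample left out, with a limma adjusted p of up to 0.0120. The 3 clones did not overlap in either gene and stood in the same order as in Rptor. Neither gene passed in the other 2 pairs, where adjusted p lay between 0.0214 and 0.120. How many of all tested genes separate the 3 clones in this order was not counted. In a single pair between 35% and 40.7% of all tested genes did not overlap, so that the order is not shown to be particular to the pathway. Pdpk1, the kinase that phosphorylates the activation loop of AKT, stood between 90.8 and 107.6 TPM, with a log2 fold change of 0.14 between Rop7-III and -II (adjusted p = 0.0281).

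Among the other subunits of the mTOR complexes 0 of 8 tested genes passed in limma in any pair or in the F test, with 2, 0 and 1 at an unadjusted p under 0.05 in the pairs Rop7-III against Rop7-II, Rop7-III against Rop7-I and Rop7-I against Rop7-II. Rictor, the scaffold of mTORC2, stood between 135 and 165 TPM, and was higher in Rop7-I than Rop7-II T cells by 0.18 on the log2 scale without passing (95% interval 0.10 to 0.27, adjusted p = 0.0121). Mlst8, a subunit of both complexes, stood between 25.0 and 29.6 TPM. Prr5, a subunit of mTORC2, was highest in Rop7-II replicate 1 like Pik3ap1, and its log2 fold change of -1.07 between Rop7-III and -I passed without that sample (limma adjusted p = 0.00994, against 0.225 with it). As for Pik3ap1, the fold change was the same in both fits, and that sample entered only the pooled spread of Prr5. Its levels were near the filter of 1 TPM, at 1.28, 2.7 and 1.91 TPM in Rop7-I and between 0.18 and 0.54 TPM in Rop7-III. The B-cell markers summed to 329, 877 and 647 TPM in the same Rop7-I samples. In the Rop7-III samples they summed to between 127 and 275 TPM. Whether B cells account for the Prr5 difference was not tested. Of 21 regulators upstream of mTORC1, such as the TSC complex, the Rag GTPases and the GATOR complexes, 1 passed. It was Nprl2, a subunit of GATOR1, which was lower in Rop7-I (52.1 ± 3.08 TPM, SD, n = 3) than in Rop7-II T cells (64.3 ± 3.86 TPM, SD, n = 3) by a log2 fold change of -0.30 (limma adjusted p = 0.00605). That call held in 2 of 9 fits with 1 sample left out, and the adjusted p without Rop7-II replicate 1 was 0.0137. In the pairs with Rop7-III 0 of the 21 passed in limma, with 4 against Rop7-II and 1 against Rop7-I at an unadjusted p under 0.05. The largest difference of the group in both pairs was that of Rragd, which encodes a Rag GTPase. It was lower in Rop7-III by -0.47 against Rop7-II (limma adjusted p = 0.0135) and by -0.51 against Rop7-I (limma adjusted p = 0.0175). Neither passed with all samples, and the former was called in 2 of 9 fits with 1 sample left out.

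Of 17 tested substrates of AKT and mTORC1, 4 passed between Rop7-III and -II T cells (23.5%, against 12.3% of all tested genes). Tbc1d4, which encodes AS160, an AKT substrate in the traffic of glucose transporters, stood at 20.8, 22.5 and 21.8 TPM in the Rop7-I samples, at 15.8, 12.7 and 14.6 TPM in the Rop7-II samples and at 33.9, 32.5 and 35.8 TPM in the Rop7-III samples. The clones did not overlap. It was 2.29-fold higher in Rop7-III than Rop7-II T cells (log2 fold change 1.19, standard error 0.08, limma adjusted p = 1.60e-05), and it also passed between Rop7-III and -I (0.63, limma adjusted p = 0.00114) and between Rop7-I and -II (0.57, limma adjusted p = 0.00141). Cdkn1b, which encodes the cell cycle inhibitor p27, and Pdcd4, an inhibitor of translation, were higher in Rop7-III than Rop7-II T cells by 0.23 each (limma adjusted p = 0.00209 and 0.00967), and the call of Pdcd4 was lost in 6 of 9 fits with 1 sample left out, with an adjusted p of 0.0240 without Rop7-II replicate 1. Gsk3a, a kinase that AKT inhibits, was lower in Rop7-III by -0.21 (limma adjusted p = 0.00145) and in Rop7-I by -0.16 than in Rop7-II T cells (limma adjusted p = 0.00897, lost with any 1 sample left out). Of its 2900 exonic bases Gsk3a shares 820 with 9130221H12Rik, on the opposite strand, which is listed at a mean of 29.2 TPM. A library without strand cannot separate the reads of that stretch.

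Foxo1, the transcription factor that AKT excludes from the nucleus, stood at 119.7, 113.2 and 117.1 TPM in the Rop7-I samples, at 127.1, 142.1 and 143.4 TPM in the Rop7-II samples and at 136.9, 140.9 and 144.1 TPM in the Rop7-III samples. The 3 Rop7-I samples were the lowest. Foxo1 was higher in Rop7-III than Rop7-I T cells by 0.27 on the log2 scale (standard error 0.05, limma adjusted p = 0.00777, called in 3 of 9 fits with 1 sample left out). The difference of -0.23 between Rop7-I and -II did not pass with all samples (adjusted p = 0.0107) and was -0.29 without Rop7-II replicate 1 (adjusted p = 0.00124). It shares 674 exonic bases with Gm20402 on the opposite strand, which has no row in the table.

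The FOXO1 target genes of naive T cells did not all differ in the same direction. Il7r, the IL-7 receptor α chain, stood at 473.5, 525.1 and 533.5 TPM in the Rop7-I samples, at 300.2, 317.8 and 333.2 TPM in the Rop7-II samples and at 746.9, 730.0 and 771.2 TPM in the Rop7-III samples. The clones did not overlap and stood in the same order as in Rptor and Tbc1d4, an order whose share among all tested genes was not counted. Il7r was 2.36-fold higher in Rop7-III than Rop7-II T cells (log2 fold change 1.24, standard error 0.05, limma adjusted p = 1.26e-06) and passed in the other 2 pairs as well. Klf2, a transcription factor of naive T cells, was lowest in Rop7-I T cells (817 ± 48.6 TPM, against 1311 ± 91.8 in Rop7-II and 1166 ± 84.4 in Rop7-III, SD, n = 3 each), with log2 fold changes of -0.68 between Rop7-I and -II (limma adjusted p = 2.62e-04) and 0.51 between Rop7-III and -I (limma adjusted p = 0.00162). Ccr7, the receptor for lymph node chemokines, was highest in Rop7-II T cells (684 ± 6.83, 808 ± 21.8 and 735 ± 8.72 TPM, SD, n = 3 each), with log2 fold changes from Rop7-II of -0.24 in Rop7-I (limma adjusted p = 5.22e-04) and -0.14 in Rop7-III T cells (limma adjusted p = 0.00655, called in 1 of 9 fits with 1 sample left out). S1pr1 stood between 760 and 890 TPM and did not pass in any pair.

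**Figure D4:**
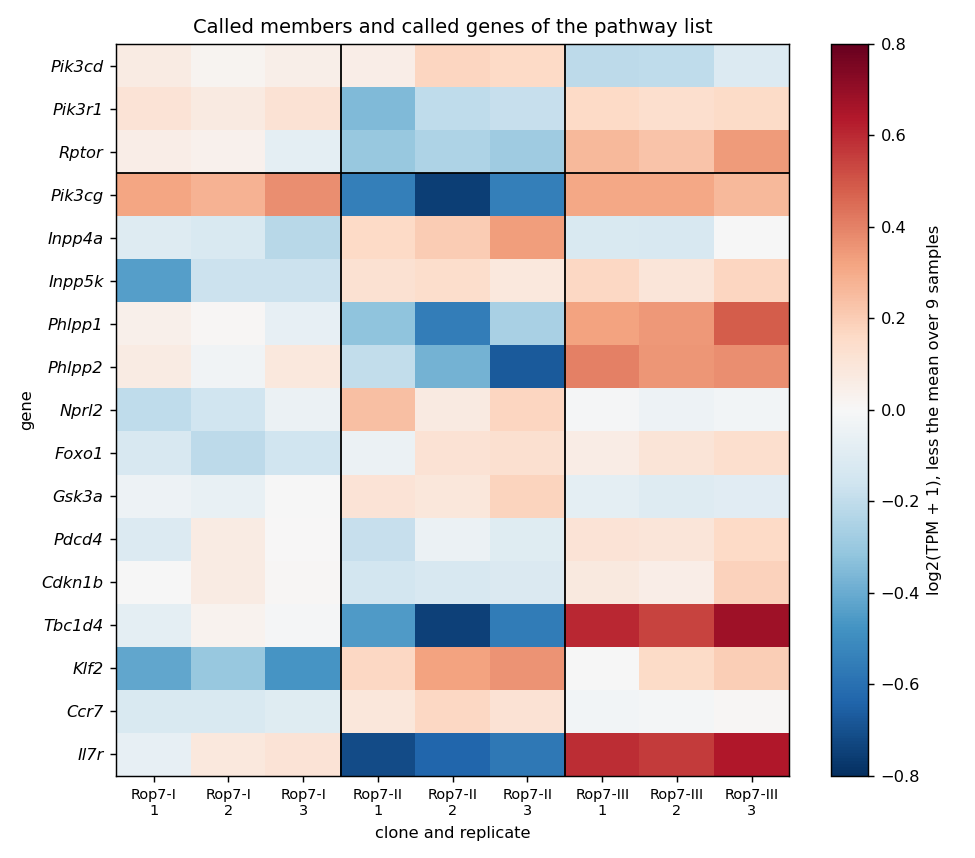
Colour gives log2(TPM + 1) of each gene less its mean over the 9 samples, for the 3 of the 8 genes that passed (above the horizontal line) and 14 genes of the pathway list that passed in a pair of clones or in the F test (rows), in the 9 samples by clone and replicate (columns). Pik3cg and Il7r are lowest in the 3 Rop7-II samples, Tbc1d4 and Il7r are highest in the 3 Rop7-III samples, and Klf2 is lowest in the 3 Rop7-I samples.

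For each of the 3 genes that differed, the 2 genes with the most similar values over the 9 samples were found among the 8461 tested genes with a mean of at least 10 TPM. Likeness was the root mean square difference of log2(TPM + 1), each gene centred on its own mean. For Pik3cd, whose values spanned 0.38 on this scale, these were Usp24 (0.028) and Arhgef11 (0.033). For Pik3r1, which spanned 0.51, they were Rapgef6 (0.036) and Pmm2 (0.040), and for Rptor, which spanned 0.64, Atp10d (0.047) and Slc25a40 (0.050). Usp24 stood at 122, 130.1 and 103 TPM by clone in the order Rop7-I, -II and -III, Rapgef6 at 203, 154 and 212 TPM, and Atp10d at 34.4, 29.9 and 44.4 TPM, as means of 3 samples.

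Of the 8, 3 had a gene within 1 Mb that differed at least 2-fold in some pair of clones at an adjusted p under 0.01, against 30.8% of 11512 tested genes with a known position. These neighbours were Crip1, Crip2 and Pacs2 near Akt1, Masp2 near Mtor and Slc26a11 near Rptor. No such gene was found near the other 5, Pik3cd and Pik3r1 among them.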

How the data were processed

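RNA-seq of sorted CD8 T cells (100 bp single reads, not strand-specific) was summarised by the authors with RSEM (version 1.2.11 in the submitters' processing notes) as TPM per gene, transcript numbers corrected for gene length and scaled to the same total in every library, which they deposited for 9 samples. The study's own test, DESeq2 (version 1.8.1 in the same notes), needs counts, which were not used here. The table has no column without a sample (0 left out). The paper gives only an approximate read number for a typical sample, and TPM holds no counts, so no counting interval is given, and 3 samples a clone limit the precision.

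Values were analysed as log2(TPM + 1), computed from the deposited TPM. Genes with a maximum over 1 TPM (12115 of 24060) were fitted over all 9 samples with limma 3.58.1 in R 4.3.3, with the spread trended on mean expression and Benjamini-Hochberg adjustment within each comparison. A gene was called at an adjusted p under 0.01, the limit of the study. Fold changes on this scale understate the change of low genes. Shares of TPM were compared by two-sided exact permutation tests. The fits were tested on simulated data. The labels call the samples biological replicates, and the p-values measure the spread between them.

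The members and lists were chosen with earlier results of these data known. Named by rule were the 8 genes, the called genes of each pathway group (up to 6 with the smallest F test p), those below the filter, and the 2 genes most like each called member. Other pathway genes named (Pik3ca, Pik3cb, Pik3r5, Pik3ap1, Pdpk1, Rictor, Mlst8, Prr5, Rragd and S1pr1), the added ratios and shares, and the motifs were chosen after their values were seen. Some items of the lists and the share that rests on them are not reported here. Positions are from GENCODE on GRCm38 and promoter windows from RefSeq on GRCm38.p6. Alternatives covered the pseudocount, filter, scaling, trend, samples in the fit, replicate block, call rule and leaving out each sample. Figures were drawn with matplotlib 3.10.9 in Python 3.11.15.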

Additional observations from a re-analysis of the deposited data

How the results depend on the processing

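The differences of Pik3cd, Pik3r1 and Rptor between Rop7-III and -II T cells, and that of Pik3r1 between Rop7-I and -II, were called under all 17 alternatives tried for each. The Pik3cd call between Rop7-III and -I was lost with no filter, a common median, no trend and the replicate block (adjusted p = 0.0180, 0.0209, 0.0270 and 0.0148), with log2 fold changes between -0.26 and -0.20 over its 17 alternatives. The Rptor call between Rop7-I and -II was lost with no filter, no trend, the block and only the 2 clones fitted (adjusted p = 0.0106, 0.0116, 0.0211 and 0.0213), with log2 fold changes between 0.25 and 0.32 over its 17 alternatives. The Rptor difference between Rop7-III and -I was called with a filter of 1 TPM in every sample (adjusted p = 0.00948) and a common median (adjusted p = 0.00811), and that of Pik3ip1 between Rop7-I and -II under quantile normalization (0.16, adjusted p = 0.00329). The causes were not tested.

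The members called between Rop7-III and -I were 0 with no filter, no trend, the block or a 2-fold minimum, and 2 with the stricter filter or an adjusted p limit of 0.05. Between Rop7-I and -II they were 1 with no filter, no trend, the block or only the 2 clones, and 0 with a 2-fold minimum, which also left 0 between Rop7-III and -II. With each sample left out they ranged from 0 to 1 between Rop7-III and -I and from 1 to 2 between Rop7-I and -II. The F test called 5 at an adjusted p limit of 0.05. Of the pathway list, a 2-fold minimum left 2 between Rop7-III and -II and 0 in the other pairs. Between Rop7-III and -I the list count was 3 with no filter or the block, 10 at the limit of 0.05, and 2 to 7 with each sample left out, with the lowest count in the fit that lacked Rop7-III replicate 2. For Rop7-I against -II it was 7 with only the 2 clones and 18 at the limit of 0.05. Over all tested genes the calls between Rop7-III and -I went from 588 to 442 with no filter, 407 with no trend and 373 with the block. In the same fits those between Rop7-I and -II went from 912 to 710, 600 and 613. With each sample left out they ranged from 258 to 830 and from 416 to 875. These counts are thus to be read against changes over all tested genes.

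The replicate block added the replicate number to the fit. Deviations of samples with the same number correlated at r between -0.388 and 0.106, and those with other numbers between -0.177 and 0.324, so that the numbers were not taken to pair the samples. With the block 3, 0 and 1 members were called in the 3 pairs and 3 in the F test, with 10, 3, 8 and 11 genes of the pathway list. Over all 12115 tested genes the counts with the block were 1105, 373, 613 and 1205, against 1488, 588, 912 and 1707 without it.

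Signs changed only in differences that were not called. With each sample left out Inpp5d ranged from -0.0407 to 0.0640, from -0.0702 to 0.0103 and from -0.0172 to 0.0876 in the 3 pairs, Akt1 between Rop7-III and -II from -0.0262 to 0.0501, Akt2 between Rop7-I and -II from -0.0364 to 0.00898 (0.0126 under quantile normalization), and the Pik3r1 share between Rop7-III and -I from -1.24 to 0.238 percentage points. The table holds no read counts, so limits set by depth are not given.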
